A study of Mus musculus with 9 samples.

Results

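The 10 genes described here, Klf2, Klf3, Klf4, Klf5, Klf6, Klf7, Klf9, Klf10, Klf13 and Klf15, encode Krüppel-like factors, and they were chosen by symbol from the 46517 genes in each table of a bulk RNA sequencing study of mouse duodenal organoids. All 10 passed the filter on low counts in every comparison. When the organoids overexpressed HIF2, 7 of the 10 changed, against 29.5% of all 14987 genes tested: Klf4, Klf7 and Klf13 rose, and Klf5, Klf6, Klf9 and Klf10 fell. The calls of Klf5, Klf9 and Klf13 did not hold when single samples were left out. Those of Klf5, Klf6 and Klf9 were lost when counts were scaled to library totals only. On abundances scaled by transcript length (TPM), between 2 and 4 of the 10 were called. On the TPM as deposited, the calls of Klf6, Klf7 and Klf10 were among those lost. Of the 7, Klf4 alone kept its call in every setting tried. The changes that reached 2-fold were a rise of Klf4 and a fall of Klf10. In organoids that overexpressed HIF1, none of the 10 passed the same threshold in edgeR, where 0 of all genes did, while other settings called between 0 and 384 of all genes.

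The study asked how the hypoxia-inducible factors act in the small intestine. Crypts from the duodenum of wild type C57BL/6J mice were grown in Matrigel as 3D organoids in a Wnt-containing conditioned medium with inhibitors of ROCK and of the TGF-β type I receptor, at 5% oxygen. Dissociated cells of all 9 samples then received adenovirus at 50 particles per cell and were harvested after about 72 hours. The virus carried GFP in the 3 control samples (Adeno-GFP in the labels, Ad-GFP here), human HIF2 in 3 samples (Adeno-hHIF2, Ad-hHIF2 here) and human HIF1 in 3 samples (Adeno-HhHIF1, Ad-hHIF1 here). The encoded HIFs were mutated at prolines and so were stable also where VHL would otherwise have them broken down. There was no sample without virus. Replicates are numbered 1, 3 and 4 in each group. The article describes the sequenced Ad-hHIF2 and Ad-GFP samples as 3 biological replicates per group. Since the labels do not tie the numbers to separate mice, the p-values measure the spread between these samples.

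Krüppel-like factors are transcription factors with conserved C-terminal zinc fingers that bind GC-rich and CACCC-type DNA. They differ in the parts outside the zinc fingers, through which some recruit acetyltransferases and activate genes while others recruit CtBP or Sin3A and repress them. In the intestinal epithelium KLF5 is known from the proliferating crypt and KLF4 from differentiated villus and goblet cells, and KLF4 slows the cell cycle in part through the CDK inhibitor p21. The hypoxia-inducible factors bind DNA as dimers with ARNT, at hypoxia response elements that share a short core sequence.

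Library totals ran from 21722618 to 51119041 expected counts. Transcripts assigned to mouse Epas1, the gene of HIF2α, were at 604 to 758 CPM (counts scaled to library size) in Ad-hHIF2 and at 1.47 to 3.07 CPM in the other 6 samples, and Hif1a was at 299 to 319 CPM in Ad-hHIF1 against 198 to 251 CPM in the other 6. These values check the labels only as far as reads of the human transgenes were assigned to the mouse genes. The label of intestinal epithelium rested on its keratins and E-cadherin: the 6 epithelial markers summed to between 2270 and 2843 CPM, with most counts from Krt8, Krt18 and Cdh1. Of the other defining markers, Vil1 averaged 4.36 CPM in Ad-GFP and 3.99 CPM in Ad-hHIF2, and Epcam was low and lower with HIF2 (2.94 against 1.68 CPM, log2 fold change −0.81, adjusted p = 0.0472, edgeR), while Cdh1 was higher (218 against 316 CPM, 0.53, adjusted p = 0.00313); the part of these differences in the results was not tested. The stem cell markers Lgr5, Olfm4, Ascl2 and Smoc2 summed to at most 1.30 CPM in any sample, with Olfm4 at 0 in Ad-GFP and Ad-hHIF2. Ascl2 averaged 0.0229 CPM in Ad-hHIF2 and 0.614 CPM in Ad-hHIF1 (edgeR, adjusted p = 0.0316, and 0.0537 without Ad-hHIF1 replicate 3). Lgr5 averaged 0.201 CPM in Ad-GFP and 0.691 CPM in Ad-hHIF2 and did not pass (adjusted p = 0.0714). One library stood apart: the satellite-like transcripts Gm10800 and Gm26870 made up 15.96% of all counts in Ad-hHIF1 replicate 3 and at most 4.28% in the other 8 samples. Shares and calls that rest on Ad-hHIF1 are therefore also given without that library.

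Relative to one another, per transcript length, Klf5 and Klf6 had the highest mean shares of the 10 in every group. Levels between genes were compared in TPM (abundances scaled by transcript length), as each gene's share of the summed TPM of the 10 genes in the same sample, because the deposited TPM of all 10 genes moved together in 1 library: they summed to 35.1 TPM in Ad-hHIF2 replicate 1 and to 17.2 to 22.1 TPM in the other 8 samples. In Ad-GFP, Klf5 held 32.3% ± 2.04 (SD, n = 3) of the family sum and Klf6 held 28.4% ± 0.876 (SD, n = 3). Below them came Klf3 with 11.7% ± 2.83 and Klf9 with 9.24% ± 0.976, whose TPM ranges overlapped. Within a sample, Klf3 was above Klf9 in 2 of the 3. Klf4 with 6.98% ± 1.40 and Klf10 with 6.08% ± 1.10 also overlapped in range, although Klf4 was the higher in each of the 3 samples. Klf13 held 3.14% ± 0.325 and Klf7 held 1.83% ± 0.239, each apart from its neighbours in TPM. Klf15 at 0.251% ± 0.179 and Klf2 at 0.162% ± 0.141 were the scarcest, with overlapping ranges.

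The make-up of the family changed most visibly at Klf4 in HIF2-overexpressing organoids. Its share was 17.9% ± 0.835 (SD, n = 3) there, behind Klf5 at 26.9% ± 1.88 and Klf6 at 24.3% ± 0.949, and it was 8.18% ± 0.852 in Ad-hHIF1. The share of Klf10 was 3.02% ± 0.301 in Ad-hHIF2 and 7.46% ± 0.548 in Ad-hHIF1. Without Ad-hHIF1 replicate 3, the Ad-hHIF1 means were 8.65% for Klf4 and 7.35% for Klf10. The ratio of Klf4 to Klf10 TPM was 1.14, 1.19 and 1.10 in the 3 Ad-GFP samples and 6.68, 5.77 and 5.48 in Ad-hHIF2, against 1.13, 0.943 and 1.23 in Ad-hHIF1. The ratio of Klf4 to Klf5 was 0.256, 0.242 and 0.157 in Ad-GFP, 0.631, 0.756 and 0.618 in Ad-hHIF2 and 0.310, 0.238 and 0.259 in Ad-hHIF1. For both ratios the Ad-hHIF2 samples lay above all other samples.

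**Figure D1:**
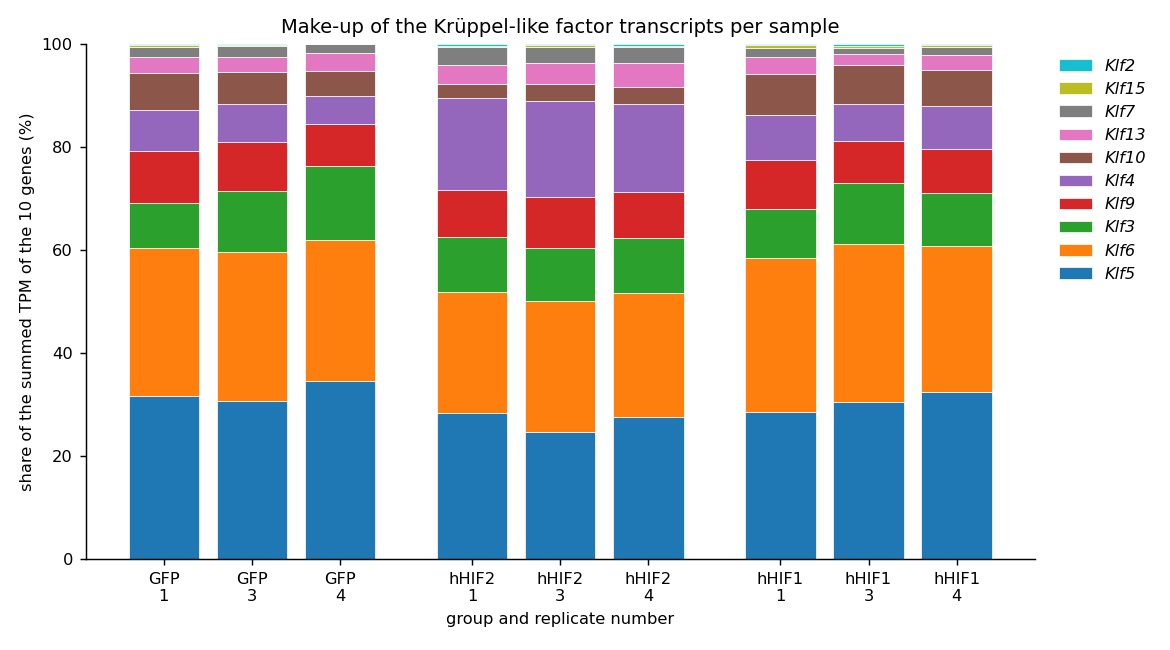
Share of each of the 10 genes in their summed TPM, as a percent, for each of the 9 samples (group and replicate number on the x axis). Klf4 takes a mean of 17.9% in the Ad-hHIF2 samples against 6.98% in Ad-GFP and 8.18% in Ad-hHIF1, and Klf10 takes 3.02% against 6.08% and 7.46%.

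In the comparison of HIF2-overexpressing with control organoids, 7 of 10 genes had an adjusted p below 0.05 by edgeR and are referred to as called, 3 of them higher and 4 lower. Of all genes, 29.5% were called, 15.9% higher and 13.6% lower. Without Ad-hHIF2 replicate 3, or without replicate 4, 4 of the 10 were called: Klf4, Klf6, Klf7 and Klf10. With the further condition of a 2-fold change, 2 of the 10 remained, 1 higher and 1 lower, against 6.73% of all genes, 2.90% higher and 3.83% lower. The samples of both groups did not overlap for 7 of the 10, 3 above and 4 below, against 45.8% of all genes. The median log2 fold change was −0.13 over the 10 genes and −0.01 over all genes. Changes in bulk RNA of this kind cannot be told apart from a change in the number of cells that hold the transcript.

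Klf4, the factor tied to epithelial differentiation and cell cycle arrest, rose 2.25-fold with HIF2. Its levels were 35.1, 31.7 and 25.7 CPM in Ad-GFP replicates 1, 3 and 4, and 72.7, 68.8 and 66.0 CPM in the same replicates of Ad-hHIF2. In Ad-hHIF1 they were 37.1, 31.5 and 38.7 CPM. All Ad-hHIF2 samples were therefore above all other samples, while the Ad-hHIF1 and Ad-GFP samples overlapped. The log2 fold change of Ad-hHIF2 over Ad-GFP was 1.17 (SE 0.108, 95% interval 0.92 to 1.41, adjusted p = 0.000128), and 0.21 (95% interval −0.08 to 0.51, adjusted p = 0.657) for Ad-hHIF1 over Ad-GFP. The gene lies on chromosome 4, at chr4:55527143-55532466 on the minus strand (GENCODE M21, GRCm38).

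Klf10, a TGF-β-inducible factor that works mainly as a repressor through Sin3A, showed the largest fall of the 10. It was at 30.7, 27.1 and 24.7 CPM in the 3 Ad-GFP samples, 11.0, 12.1 and 12.2 CPM in Ad-hHIF2, and 33.3, 33.6 and 31.6 CPM in Ad-hHIF1. The 3 groups did not overlap, with Ad-hHIF2 lowest and Ad-hHIF1 highest. Klf10 was 2.34-fold lower in Ad-hHIF2 than in Ad-GFP (log2 fold change −1.22, SE 0.0995, 95% interval −1.45 to −0.997, adjusted p = 5.63e-05). The call was lost on log2(TPM + 1) (−0.35, adjusted p = 0.329) and log2(TPM + 0.1) (−0.69, adjusted p = 0.24). Its log2 fold change in Ad-hHIF1 was 0.25 (95% interval 0.04 to 0.47), which did not pass the threshold (adjusted p = 0.546, edgeR). TGF-β type I receptor signalling was inhibited in the medium of all groups. Klf10 lies at chr15:38291463-38300706, on the minus strand.

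Klf6 and Klf5, the most abundant pair, both fell with HIF2. Klf6, a broadly expressed activator and growth suppressor, was at 175, 178 and 194 CPM in Ad-GFP, at 136, 132 and 131 CPM in Ad-hHIF2, and at 178, 190.3 and 183 CPM in Ad-hHIF1. The Ad-hHIF2 samples were below all others, with a log2 fold change of −0.45 against Ad-GFP (SE 0.0748, 95% interval −0.62 to −0.28, adjusted p = 0.00272). For Ad-hHIF1 against Ad-GFP it was 0.01 (95% interval −0.17 to 0.19). Klf5, the factor of proliferating crypt cells, was at 74.8, 73.0 and 95.03 CPM in Ad-GFP and at 63.7, 50.1 and 58.7 CPM in Ad-hHIF2, again without overlap. In Ad-hHIF1 it was at 66.1, 72.2 and 81.5 CPM, which overlapped Ad-GFP. Its log2 fold change with HIF2 was −0.49 (SE 0.125, 95% interval −0.77 to −0.21, adjusted p = 0.0189). The call was lost without Ad-hHIF2 replicate 3 (−0.40, adjusted p = 0.0723) or replicate 4 (−0.50, adjusted p = 0.0545). These falls are relative to the bulk of genes: scaled to total counts only, which moved the median of all genes to 0.24, the log2 fold change of Klf6 was −0.19 (adjusted p = 0.494) and that of Klf5 was −0.22 (adjusted p = 0.414), and on both deposited TPM scales that of Klf6 changed sign to 0.01 and 0.0023, below the medians of all genes there (0.12 and 0.30). Klf6 lies at chr13:5861482-5870394 and Klf5 at chr14:99298691-99315036, both on the plus strand.

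Klf7 and Klf13 rose less than Klf4. Klf7, best known from neurons and as a brake on fat cell formation, was at 18.9, 21.7 and 18.4 CPM in Ad-GFP, at 30.9, 26.3 and 28.9 CPM in Ad-hHIF2, and at 17.2, 13.5 and 17.0 CPM in Ad-hHIF1. The 3 groups did not overlap, in the order Ad-hHIF1, Ad-GFP, Ad-hHIF2. The rise with HIF2 was 1.46-fold (log2 fold change 0.54, SE 0.0905, adjusted p = 0.00269, edgeR), while the log2 fold change with HIF1 was −0.31 (95% interval −0.58 to −0.03, adjusted p = 0.573). The HIF2 call of Klf7 was lost on log2(TPM + 1) (0.36, adjusted p = 0.172) and log2(TPM + 0.1) (0.86, adjusted p = 0.125). Klf13, a repressor related to Klf9 and also active in lymphocytes, was at 25.6, 23.7 and 28.2 CPM in Ad-GFP, at 30.3, 30.0 and 34.9 CPM in Ad-hHIF2, and at 26.1, 19.7 and 25.8 CPM in Ad-hHIF1. All Ad-hHIF2 samples were higher, by 1.23-fold on average (log2 fold change 0.30, SE 0.095, adjusted p = 0.0427). The Klf13 call was lost in 5 of the 6 fits that left out a sample, all but the one without Ad-GFP replicate 4. In those 5 the log2 fold change was 0.24 to 0.36 and the adjusted p between 0.0537 and 0.147. With all 9 samples in a single fit it was lost as well (0.30, adjusted p = 0.0931). Klf7 lies at chr1:64029447-64122282 and Klf13 at chr7:63886351-63938915, both on the minus strand.

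Klf9, a glucocorticoid-inducible factor that also answers to thyroid hormone, was a borderline case. It was at 46.8, 44.8 and 44.1 CPM in Ad-GFP, at 40.7, 39.4 and 37.5 CPM in Ad-hHIF2, and at 43.1, 38.4 and 42.8 CPM in Ad-hHIF1. Both HIF groups lay below all control samples and overlapped each other. The log2 fold change was −0.20 with HIF2 (SE 0.0652, 95% interval −0.35 to −0.05, adjusted p = 0.046) and −0.13 with HIF1 (95% interval −0.30 to 0.04, adjusted p = 0.648). The HIF2 call was lost when any one of the 6 samples was left out, with adjusted p between 0.0546 and 0.171, and it was lost on total counts (0.06) and on the 3 TPM scales (0.12 to 0.24), which moved the median of all genes to between 0.12 and 0.30. Relative to that median, Klf9 stayed below 0 in 3 of these 4 settings and was at 0.05 on log2(TPM + 1). Klf9 lies at chr19:23141226-23168134 on the plus strand.

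Klf3, Klf2 and Klf15 did not pass edgeR's test in any comparison. Klf3, a repressor that recruits CtBP, was at 57.8, 60.2 and 81.3 CPM in Ad-GFP, 68.8, 59.2 and 62.0 CPM in Ad-hHIF2, and 63.8, 71.9 and 65.4 CPM in Ad-hHIF1, and all groups overlapped. Its log2 fold changes were −0.06 with HIF2 (95% interval −0.36 to 0.24) and 0.01 with HIF1 (95% interval −0.29 to 0.32), so that a 2-fold change lay outside both intervals. Only 2 of 9 samples gave Klf3 a whole expected count (within 0.005), and Klf7 had 6 of 9, which shows that some of their reads were divided with other genes. The other 8 members had whole counts in all 9 samples. Klf3 lies at chr5:64803388-64832901 on the plus strand.

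Klf2, known from endothelium and from quiescent T cells, and Klf15, known from liver and muscle metabolism, were near the detection limit. Klf2 had 19, 25 and 0 counts in Ad-GFP, 51, 33 and 36 in Ad-hHIF2, and 23, 20 and 21 in Ad-hHIF1. With HIF2 its log2 fold change was 1.19, as large as that of Klf4, but with an interval from −0.48 to 2.85 (adjusted p = 0.257), and the Ad-hHIF2 and Ad-GFP samples overlapped at 0.648 and 0.693 CPM. Klf2 did pass with HIF2 in 3 alternatives, on total counts only (1.46, adjusted p = 0.0271), on log2(TPM + 1) (0.098, below the median of all genes of 0.12, adjusted p = 0.0201) and on log2(TPM + 0.1) (0.62, adjusted p = 0.0148). Klf15 had 39, 22 and 7 counts in Ad-GFP, 21, 36 and 9 in Ad-hHIF2, and 39, 25 and 47 in Ad-hHIF1. In CPM all Ad-hHIF1 samples, at 1.13, 1.09 and 1.20, were above all Ad-GFP samples, at 1.07, 0.610 and 0.350, with a log2 fold change of 0.73 (95% interval −0.38 to 1.84, adjusted p = 0.681). The Ad-hHIF2 samples were at 0.480, 0.706 and 0.291 CPM and overlapped Ad-GFP. The endothelial markers Pecam1, Cdh5, Kdr, Tek and Emcn summed to 1.60 to 3.14 CPM in Ad-GFP, 1.10 to 1.76 CPM in Ad-hHIF2 and 1.84 to 2.89 CPM in Ad-hHIF1, and their part in the low Klf2 counts was not tested. At this depth, even fitted changes above 2-fold did not pass for Klf2 with HIF2 (2.27-fold) and for Klf15 between the HIFs (2.28-fold lower). Klf2 lies at chr8:72319033-72321656 and Klf15 at chr6:90462576-90475238, both on the plus strand.

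**Figure D2:**
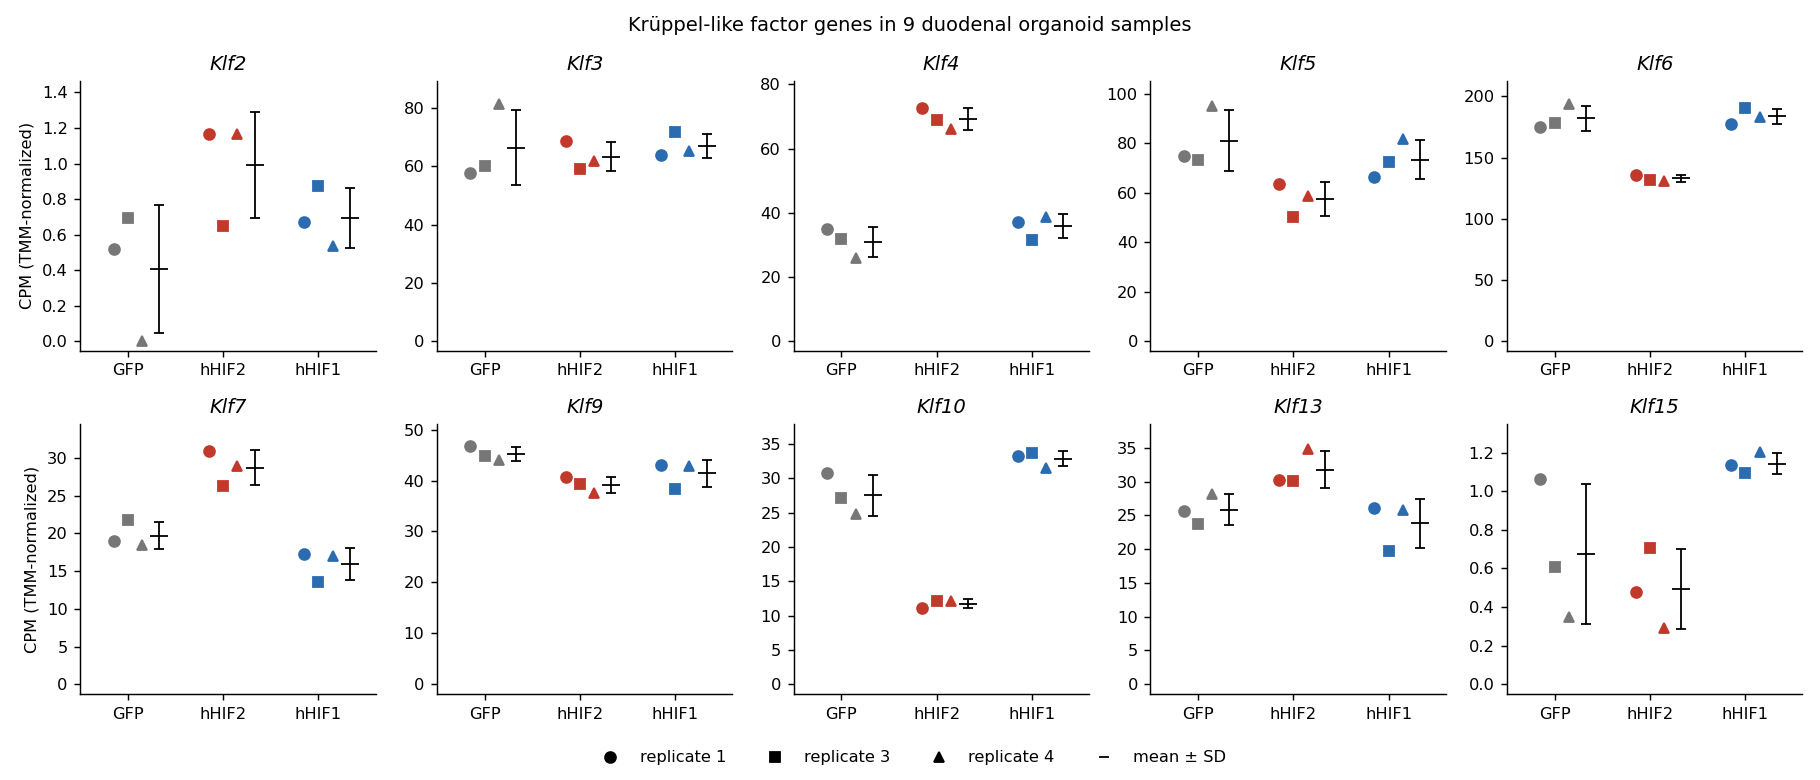
Normalized expression (CPM with TMM factors, linear y axes) of the 10 genes in the 9 samples, with 1 symbol per sample by replicate number and bars for mean ± SD of 3 samples. The Ad-hHIF2 samples stand above all others for Klf4, Klf7 and Klf13 and below all others for Klf5, Klf6 and Klf10.

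HIF1 overexpression gave no call among the 10 genes. With edgeR, 0 of 10 passed an adjusted p of 0.05, against 0.0% of the 15233 genes tested, and 2 of 10 (Klf7 and Klf10) had an unadjusted p below 0.05, against 8.59% of all genes. DESeq2 called 0 of the 7 to which it gave an adjusted p (none was given for Klf2, Klf7 and Klf15) and 144 of all genes, and limma-voom called 0 of the 10 and 5 of all genes. Samples did not overlap with Ad-GFP for 4 of 10 genes, Klf10 and Klf15 above and Klf7 and Klf9 below, against 17.4% of all genes. For Klf3, Klf4, Klf5, Klf6, Klf7, Klf9, Klf10 and Klf13 the 95% intervals stayed within a 2-fold change in either direction. The wider intervals of Klf2 (−1.34 to 2.74) and Klf15 did not. Without Ad-hHIF1 replicate 3, again 0 of 10 were called.

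Because both comparisons use the same Ad-GFP samples, the effects of HIF2 and HIF1 were set against each other directly. In this contrast, fitted on all 9 samples, 5 of 10 genes differed by edgeR's quasi-likelihood test, 3 higher and 2 lower in Ad-hHIF2, against 25.8% of the 15556 genes tested, 13.7% higher and 12.0% lower. Klf10 differed most and was 2.79-fold lower in Ad-hHIF2 (log2 difference −1.48, SE 0.0902, adjusted p = 2.17e-06), the only one of the 10 called at 2-fold, against 6.11% of all genes. That share stands for 951 genes, which became 585 without Ad-hHIF2 replicate 1, 629 without Ad-hHIF2 replicate 3 and between 683 and 1160 without any other single sample. Klf4 was 1.93-fold higher (log2 difference 0.95, SE 0.115, adjusted p = 0.000221) and Klf7 was 1.80-fold higher (0.85, SE 0.111, adjusted p = 0.000387). The Klf7 call was lost on log2(TPM + 1) (0.40, adjusted p = 0.126) and log2(TPM + 0.1) (0.99, adjusted p = 0.0825). Klf13 was 1.33-fold higher (0.41, adjusted p = 0.028), and Klf6 was 1.38-fold lower (−0.47, adjusted p = 0.000889). The Klf6 call was lost on total counts only (−0.28, adjusted p = 0.243), log2(TPM + 1) (−0.16, adjusted p = 0.736) and log2(TPM + 0.1) (−0.19, adjusted p = 0.728). On rescaled TPM, which moved the median of all genes to 0.45, its difference was 0.024. For Klf5 the difference was −0.35 (95% interval −0.63 to −0.07, adjusted p = 0.0684), and for Klf15 it was −1.19 (−2.26 to −0.12, adjusted p = 0.0977), neither of which passed, although Klf5 passed in 6 alternatives (adjusted p between 0.0137 and 0.0484). Klf9 did not pass either, with a difference of −0.08 (95% interval −0.23 to 0.07), nor did Klf3 (−0.08, −0.36 to 0.20) or Klf2 (0.52, −1.09 to 2.13). Samples of the HIF groups did not overlap for 7 of 10, against 41.8% of all genes. Without Ad-hHIF1 replicate 3, the calls of Klf4, Klf6, Klf7 and Klf10 stood, and that of Klf13 was lost (0.28, adjusted p = 0.0801). The Klf13 call was also lost without Ad-GFP replicate 1 (adjusted p = 0.0534), without Ad-hHIF2 replicate 1 (0.0555), replicate 3 (0.0587) or replicate 4 (0.102). Over all fits that left out a sample its log2 difference was 0.28 to 0.47. On all 3 TPM scales the call was lost too (0.30, 0.62 and 0.91, adjusted p = 0.304, 0.271 and 0.0732). Without Ad-hHIF1 replicate 4, Klf4 also passed 2-fold, which made 2 of the 10.

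**Figure D3:**
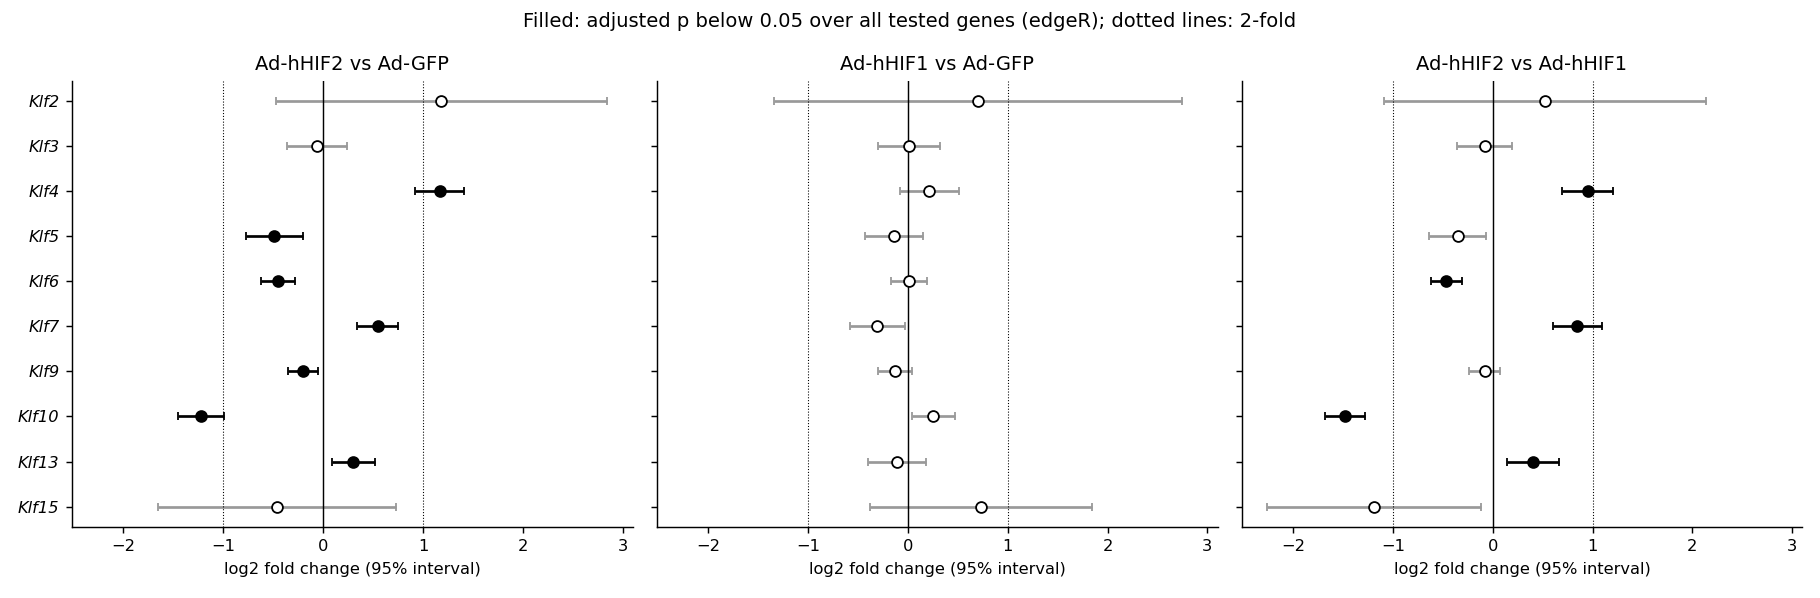
Log2 fold change with 95% interval for the 10 genes in the 3 comparisons, where filled symbols passed an adjusted p of 0.05 over all tested genes (edgeR) and dotted lines mark 2-fold. With Ad-hHIF2 over Ad-GFP, 7 symbols are filled, from Klf10 at −1.22 to Klf4 at 1.17, with Ad-hHIF1 over Ad-GFP none, and with Ad-hHIF2 over Ad-hHIF1 5.

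Promoter sequences were inspected for the short motifs tied to HIFs and Krüppel-like factors. RefSeq promoters (GRCm38.p6, 250 bases before to 50 after the gene start) were found for 8 of the 10 genes, all but Klf5 and Klf10. Klf4 and Klf6 are shown because both hold the palindrome CACGTG, in which the hypoxia response core is read on both strands, while their transcripts moved in opposite directions with HIF2. This palindrome is also the E-box of other bHLH proteins such as MYC and USF, and a cytosine ahead of the core is not favoured in HIF sites. The Klf4 window holds no other copy of the core. The 250 bases before the start are chr4:55532476-55532725 (minus strand) for Klf4 and chr13:5861239-5861488 (plus strand) for Klf6, and capitals mark the core ACGTG or GCGTG on either strand.
Klf4: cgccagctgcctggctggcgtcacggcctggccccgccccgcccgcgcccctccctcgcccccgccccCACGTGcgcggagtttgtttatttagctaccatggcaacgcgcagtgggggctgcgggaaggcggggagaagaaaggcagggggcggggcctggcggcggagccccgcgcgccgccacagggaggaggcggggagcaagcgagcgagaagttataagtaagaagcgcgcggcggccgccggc
Klf6: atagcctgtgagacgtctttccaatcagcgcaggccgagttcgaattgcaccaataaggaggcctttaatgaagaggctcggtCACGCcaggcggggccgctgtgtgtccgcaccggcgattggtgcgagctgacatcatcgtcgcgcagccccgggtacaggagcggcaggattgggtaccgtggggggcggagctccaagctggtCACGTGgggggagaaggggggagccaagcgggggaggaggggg
In Klf4 the match is at −182 to −177 from the start, and in Klf6 one is at −43 to −38 with a second core, GCGTG on the opposite strand, at −167 to −163. Both strands of each 300-base window were searched. The core ACGTG or GCGTG was present in 7 of 8 members, all but Klf2, and in 43.8% of the 32851 promoters in the table. CACGTG, which contains that core, was in 3 of 8, Klf4, Klf6 and Klf15, and in 7.15% of all promoters. The GC box GGGCGG was in 7 of 8 (35.7% of all promoters) and the CACCC box in 6 of 8 (57.5%). The GC content of the 8 windows ran from 58.3% (Klf7) to 76.7% (Klf3), and its part in these counts was not tested. Klf15 held CACGTG at 3 places, the most of the 8, and its transcript did not pass the test with either HIF. A match of this kind is a description of letters in this window and gives no measure of binding.

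**Figure D4:**
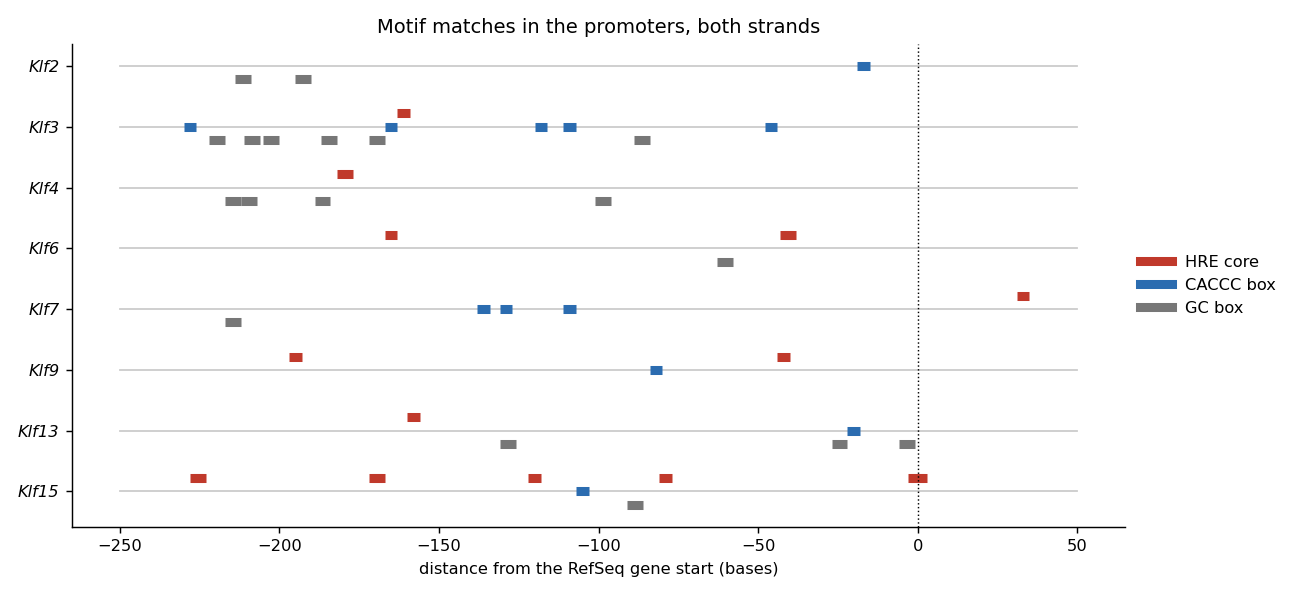
Positions of motif matches on either strand in the promoters of 8 genes, in bases from the RefSeq gene start (dotted line), with the hypoxia response core in red, the CACCC box in blue and the GC box in grey. The core is drawn in 7 of the 8 promoters, among them those of Klf4 and Klf7, whose transcripts rose with HIF2, and of Klf6 and Klf9, whose transcripts fell.

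Related genes were followed in 5 lists of 45 genes, which were chosen with earlier results of these data known. Among the other Krüppel-like factors, 4 of 7 were measured well enough to test, and with HIF2 0 were higher and 1 was lower, Klf11, a TGF-β-inducible relative of Klf10 (17.9 ± 0.423 CPM in Ad-GFP and 13.4 ± 1.52 CPM in Ad-hHIF2, SD, n = 3, log2 fold change −0.41, adjusted p = 0.015). That was 1 of 4 called, against 29.5% of all genes, and the list's median was −0.25 against −0.01 over all genes. Of the Sp factors, the nearest relatives of the family, 1 of 6 tested was higher, Sp8, at 5.54 ± 0.360 CPM in Ad-GFP and 12.6 ± 1.15 CPM in Ad-hHIF2 (1.18, adjusted p = 0.000141), and 0 were lower, against 15.9% and 13.6% of all genes. Their median was 0.06. Sp1 and Sp3, the ubiquitous members of that group, had log2 fold changes of 0.26 (adjusted p = 0.076) and −0.21 (adjusted p = 0.0559). Between the HIFs, Sp8 (1.33, adjusted p = 0.000104) was higher in Ad-hHIF2 and Sp3 lower (−0.25, adjusted p = 0.0466). Sp7 also passed (adjusted p = 0.0343), but it had 3 counts or fewer in every Ad-hHIF1 sample and averaged 0.323 CPM in Ad-hHIF2. None of the other Krüppel-like factors passed in that contrast, with 0 of 4 called against 25.8% of all genes. Without Ad-hHIF1 replicate 3, Sp8 and Sp3 still passed, Sp7 did not (adjusted p = 0.0582), and Klf16 passed (−0.51, adjusted p = 0.0145).

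Cofactors through which Krüppel-like factors act, together with their ubiquitin ligases, gave 5 higher and 0 lower of 13 tested, against 15.9% and 13.6% of all genes, with a median of 0.13 against −0.01. The 5 were the acetyltransferases Crebbp (0.44, adjusted p = 0.009), Ep300 (0.41, adjusted p = 0.00502) and Kat2b (0.52, adjusted p = 0.00847), the deacetylase Hdac1 (0.31, adjusted p = 0.0366) and the ubiquitin ligase Smurf1 (0.58, adjusted p = 0.000825). The co-repressors Ctbp1, Ctbp2, Sin3a and Sin3b did not pass. Against Ad-hHIF1, which uses the same Ad-hHIF2 samples, 4 of the 13 were higher in Ad-hHIF2 and 0 lower, against 13.7% and 12.0% of all genes, and the 4 were Crebbp, Ep300, Kat2b and Smurf1. The same 4 passed without Ad-hHIF1 replicate 3, and Hdac3 was then lower (−0.30, adjusted p = 0.0437).

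Genes linked to KLF4 or KLF5 in epithelium gave 1 higher and 2 lower of 8 tested with HIF2, a total of 3 against 29.5% of all genes, with a median of −0.26. Cdkn1a, which encodes p21, rose from 30.2 ± 2.82 to 57.3 ± 3.55 CPM (SD, n = 3, log2 fold change 0.93, adjusted p = 0.000142). Ccnd1, the gene of cyclin D1, fell from 178 ± 8.89 to 98.1 ± 4.82 CPM (−0.86, adjusted p = 8.98e-05), and Odc1, which encodes the first enzyme of polyamine synthesis, fell from 52.0 ± 4.18 to 26.4 ± 0.478 CPM (−0.97, adjusted p = 4.55e-05). Against Ad-hHIF1, which uses the same Ad-hHIF2 samples, 1 of the 8 was higher (Cdkn1a) and 3 were lower (Ccnd1, Odc1 and Krt19, the last at −0.37, adjusted p = 0.0177), against 13.7% and 12.0% of all genes. The glucocorticoid list, fixed because Klf9 and Klf15 answer to that hormone, gave 1 higher and 1 lower of 5 tested, against 15.9% and 13.6% of all genes, with a median of 0.04. The receptor gene Nr3c1 rose from 52.8 ± 4.50 to 90.9 ± 2.20 CPM (0.79, adjusted p = 0.000223), and Fkbp5, a target of the receptor, fell from 8.64 ± 0.923 to 6.05 ± 0.958 CPM (−0.51, adjusted p = 0.0332). Between the HIFs, 2 of 6 tested were higher and 1 lower, again against 13.7% and 12.0% of all genes: Nr3c1 (0.76, adjusted p = 0.000101) and the clock gene Per1 (0.34, adjusted p = 0.0115) were higher in Ad-hHIF2, and Fkbp5 was lower (−0.64, adjusted p = 0.00813). These calls and those of Cdkn1a, Ccnd1, Odc1 and Krt19 between the HIFs all stood without Ad-hHIF1 replicate 3. With HIF1, 0 genes of any of the 5 lists were called by edgeR.

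**Figure D5:**
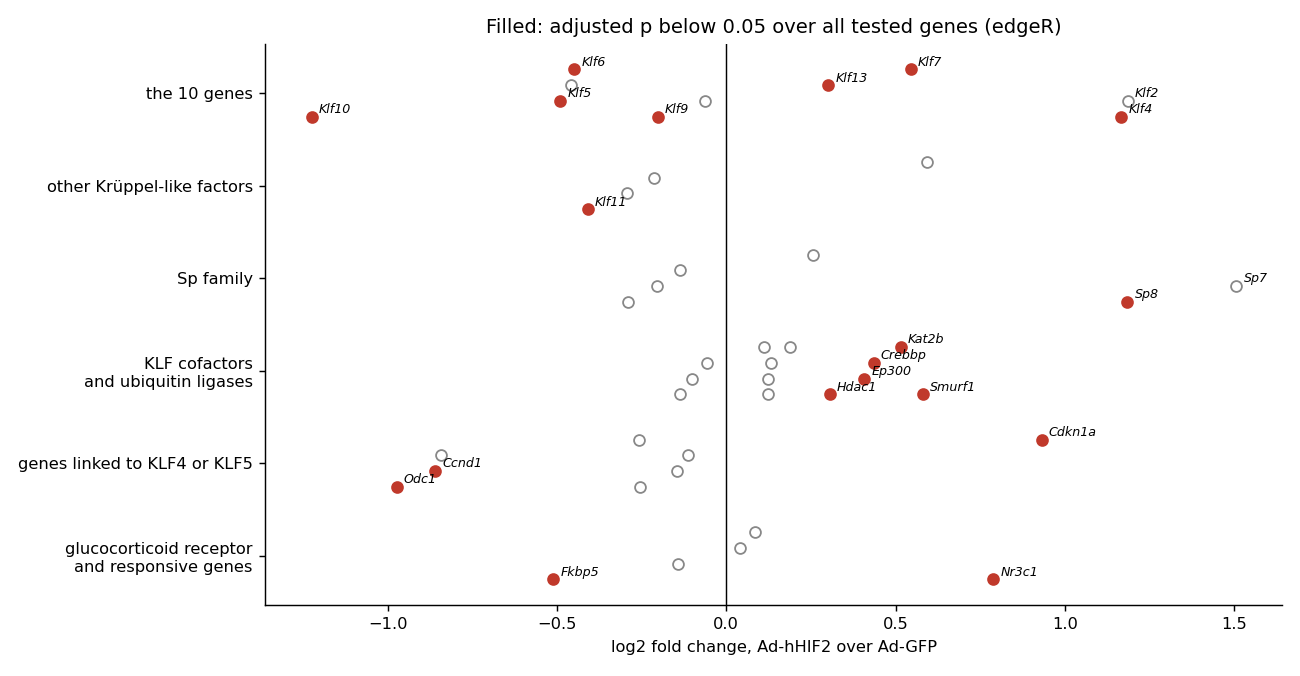
Log2 fold change of Ad-hHIF2 over Ad-GFP for the tested genes of the 10 and of the 5 related lists, 1 symbol per gene, filled where the adjusted p was below 0.05 over all tested genes (edgeR). The called cofactors all lie to the right of 0 (0.31 to 0.58), and the called genes linked to KLF4 or KLF5 lie on both sides (Cdkn1a at 0.93, Odc1 at −0.97).

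Some markers of cell types that express particular Krüppel-like factors also differed between the groups. The goblet cell markers Muc2, Tff3, Spdef, Fcgbp, Agr2 and Clca1 summed to 6.04 to 9.35 CPM in Ad-GFP, 2.70 to 2.81 CPM in Ad-hHIF2 and 4.42 to 6.13 CPM in Ad-hHIF1. Tff3 and Spdef had 3 counts or fewer in every sample, and 1 of the 2 tested markers was called with HIF2, Muc2 (log2 fold change −1.77, adjusted p = 0.000882), against 29.5% of all genes. The markers of absorptive enterocytes Alpi, Apoa1, Apoa4, Fabp1 and Sis summed to 0.164 to 0.350 CPM in Ad-GFP, 2.79 to 3.46 CPM in Ad-hHIF2 and 0.291 to 0.569 CPM in Ad-hHIF1, with most counts in Ad-hHIF2 from Apoa4. Of these 1 of 2 tested was called with HIF2, again Apoa4 (adjusted p = 5.51e-05), at 2.49 CPM in Ad-hHIF2 and with 3 counts or fewer in every sample of the other groups. Apoa4 also passed against Ad-hHIF1 (adjusted p = 0.000135, and 0.000277 without Ad-hHIF1 replicate 3). Klf4 is expressed in both cell types, and the part of these markers in its rise was not tested. The fibroblast markers summed to 12.4 to 18.1 CPM in Ad-GFP, 9.81 to 13.0 CPM in Ad-hHIF2 and 9.90 to 19.8 CPM in Ad-hHIF1. Of the 6, 0 were called in any comparison, against 29.5% of all genes with HIF2, 0.0% with HIF1 and 25.8% between the HIFs. Their median log2 fold change with HIF2 was −0.495, against −0.01 over all genes. The leukocyte markers summed to 9.45 to 15.7 CPM in Ad-GFP, 11.4 to 15.2 CPM in Ad-hHIF2 and 8.52 to 10.9 CPM in Ad-hHIF1. Most leukocyte marker counts were from Cd68, at means of 10.6, 13.6 and 8.92 CPM in Ad-GFP, Ad-hHIF2 and Ad-hHIF1 (adjusted p = 0.179 for Ad-hHIF2 against Ad-GFP and 0.0374 against Ad-hHIF1). Ptprc, the defining pan-leukocyte marker, averaged 0.769, 0.0425 and 0.315 CPM and passed with HIF2 (adjusted p = 0.00472), with 3 counts or fewer in every Ad-hHIF2 sample. Ptprc also passed between the HIFs, lower in Ad-hHIF2 (adjusted p = 0.0472). Without Ad-hHIF1 replicate 3, neither passed between the HIFs (adjusted p = 0.0675 for Cd68 and 0.135 for Ptprc). Klf2 and Klf13 are also expressed in leukocytes, and the part of these markers in their values was not tested.

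The genes whose pattern over the 9 samples was most like that of Klf4 and Klf10 were found by the root mean square difference of log2 CPM, centred on the Ad-GFP mean, among 14968 genes. For Klf4 they were Clic5, a member of the chloride intracellular channel family (0.0838), Ugdh, which makes UDP-glucuronic acid (0.101), and Foxo1, a forkhead transcription factor (0.101). Their means in Ad-GFP, Ad-hHIF2 and Ad-hHIF1 were 4.99, 11.8 and 6.16 CPM for Clic5, 367, 846 and 421 CPM for Ugdh, and 25.3, 54.0 and 29.7 CPM for Foxo1. For Klf10 the nearest were Lppr3 (0.120), Fstl3, an activin-binding protein gene (0.124), and Vnn1, the gene of a pantetheinase (0.126). Fstl3 averaged 30.7, 13.6 and 39.8 CPM and Vnn1 averaged 93.9, 37.8 and 104.8 CPM in the same order of groups. These neighbours share the 9 libraries with Klf4 and Klf10 and are named as a description.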

How the data were processed

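RNA sequencing of 9 mouse duodenal organoid samples was used, 3 each of Ad-GFP, Ad-hHIF2 and Ad-hHIF1, with groups and replicate numbers from the labels. Low-quality reads were discarded by the authors, and gene abundances were estimated with RSEM (named in the submitters' processing notes and the article's methods). Its version, the aligner, genome build and strandedness are not given in the sources used here. The deposited expected counts are the authors' RSEM estimates per gene and are not normalized, and 85.7% of them are whole numbers (within 0.005). The deposited TPM were computed by the authors from these counts and effective lengths. Genes of effective length under 200 held 90.2% to 94.8% of all TPM, so that TPM was used here to compare genes, as shares, ratios and ranks within a sample and as ranges over the 3 samples of a group, and in alternatives.

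Expected counts were rounded, low-count genes were removed with filterByExpr, TMM factors were computed and the quasi-likelihood test of edgeR 4.0.16 was run in R 4.3.3, fitted on all genes with Benjamini-Hochberg adjustment over all tested genes. The authors used EBSeq, in place of which edgeR was run. Fits against Ad-GFP held only the 6 samples compared, and the fit of Ad-hHIF2 against Ad-hHIF1 held all 9. Calls needed an adjusted p under 0.05, and by a second rule also a change of 2-fold or more. Standard errors were derived from the F statistic, and the code was tested on simulated data. No 2 samples of a group agreed within sampling noise (chi-square per degree of freedom of at least 23.7).

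All 10 genes were named, with the 3 genes nearest in pattern to each one called at 2-fold with HIF2, and of the related lists the genes that passed. Ctbp1, Ctbp2, Sin3a, Sin3b and Sp1, which did not pass, Hdac3 and Klf16, which passed between the HIFs only without Ad-hHIF1 replicate 3, and single cell type markers were named after their values were seen. The members, lists and tests were chosen with earlier results of these data known. Positions come from GENCODE M21 (GRCm38) and promoters from RefSeq (GRCm38.p6), since the tables hold none. Alternatives were other count filters, median-ratio size factors, total counts, DESeq2 1.42.0, voom and linear models on TPM in limma 3.58.1 (log2 scale with a pseudocount of 1 or 0.1), other sets of samples in the fit, a replicate block and leaving out each sample. A fit on log2(TPM + 0.1) with TPM rescaled over tested genes of effective length of at least 200 was added after seeing the data.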

Additional observations from a re-analysis of the deposited data

Results flagged for a closer look

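For 5 of the genes the effects of HIF2 and HIF1 differed from each other, when Ad-hHIF2 was tested against Ad-hHIF1 with edgeR over all 9 samples, where 25.8% of all genes were called. The log2 difference was 0.95 for Klf4, −0.47 for Klf6, 0.85 for Klf7, −1.48 for Klf10 and 0.41 for Klf13, each with an adjusted p below 0.05. The Klf13 call was lost in 5 of the 9 fits that left out a sample (adjusted p = 0.0801 without Ad-hHIF1 replicate 3) and on the 3 TPM scales. The Klf6 call was lost on total counts only (adjusted p = 0.243) and on both deposited TPM scales (0.736 and 0.728). On rescaled TPM the Klf6 difference was 0.024, below the median of all genes of 0.45. Klf7 lost its call on both deposited TPM scales (adjusted p = 0.126 and 0.0825), and Klf10 on log2(TPM + 1) (0.0506). Klf4 kept its call in every setting. For Klf7 and Klf10 the samples of the HIF groups lay on opposite sides of all Ad-GFP samples. The Ad-GFP samples were at 18.4 to 21.7 CPM for Klf7 and 24.7 to 30.7 CPM for Klf10. With HIF1 against Ad-GFP neither gene passed (edgeR, −0.31, adjusted p = 0.573 for Klf7 and 0.25, adjusted p = 0.546 for Klf10). Of all genes, 17.4% had no overlap with Ad-GFP with HIF1 and 45.8% with HIF2.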

How the results depend on the processing

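Klf4 kept its direction and its call in every setting tried in both Ad-hHIF2 comparisons, and Klf10 lost its call only on deposited TPM scales (with HIF2 against Ad-GFP −0.35, adjusted p = 0.329, at a pseudocount of 1, and −0.69, adjusted p = 0.24, at 0.1, and against Ad-hHIF1 −0.61, adjusted p = 0.0506, at 1). Some alternatives moved the median log2 fold change of all genes with HIF2: to 0.24 on total counts only, 0.12 on log2(TPM + 1), 0.30 on log2(TPM + 0.1), 0.29 on rescaled TPM and −0.13 without a count filter. The number of members called with HIF2 against Ad-GFP went from 7 to 2 on log2(TPM + 1), 2 on log2(TPM + 0.1) and 4 on rescaled TPM. Both deposited TPM scales called Klf4 and Klf2 and not the other 6 of the 7 (Klf7 at adjusted p = 0.172 and 0.125). On total counts only 5 were called (Klf5, Klf6 and Klf9 lost, Klf2 gained), and 5 with all 9 samples in a single fit (Klf9 and Klf13 lost). DESeq2 called 6, as did edgeR without a count filter (Klf9 lost in both). When a sample was left out, between 4 and 6 were called (4 without Ad-hHIF2 replicate 3 or replicate 4). Those called at 2-fold went from 2 to 1 on each of the 3 TPM scales and stayed at 2 with any sample left out. Between the HIFs the members called went from 5 to 1, 2 and 3 on the same 3 scales and to between 4 and 6 with a sample left out. Those called at 2-fold went from 1 to 3 on total counts only, 0 on log2(TPM + 1), 2 on log2(TPM + 0.1) and 2 on rescaled TPM, with 1 or 2 when a sample was left out (2 without Ad-hHIF1 replicate 4). In the HIF1 comparison 0 members were called in any setting. The cause of these moves was not tested.

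Relative to the median of all genes in the same setting, only 3 signs turned with HIF2, 9 with HIF1 and 3 between the HIFs. Without regard to that median, signs turned under an alternative in 11 log2 fold changes with HIF2, 13 with HIF1 and 10 between the HIFs. All of the 11, 13 and 10 turns are listed here. With HIF2 against Ad-GFP these were Klf3 at 0.21 (total counts), 0.084 and 0.11 (TPM with a pseudocount of 1 and 0.1) and between −0.15 and 0.11 with a sample left out (0.11 without Ad-GFP replicate 4), Klf6 at 0.0088 and 0.0023 (TPM), Klf9 at 0.059 (total counts), 0.18 and 0.24 (TPM) and 0.12 (rescaled TPM), and Klf15 between −0.81 and 0.035 (0.035 without Ad-GFP replicate 1). With HIF1 they were Klf3 at −0.33 (rescaled TPM) and between −0.077 and 0.18 with a sample left out, Klf5 at 0.046 and 0.052 (TPM), Klf6 at −0.15 (rescaled TPM) and between −0.016 and 0.059, Klf9 at 0.037 and 0.054 (TPM), and Klf13 between −0.18 and 0.010. Between the HIFs they were Klf3 at 0.12 (total counts), 0.083, 0.097 (TPM) and 0.32 (rescaled TPM), Klf5 at 0.13 and Klf6 at 0.024 (rescaled TPM), and Klf9 at 0.10 (total counts), 0.14, 0.18 (TPM) and 0.41 (rescaled TPM). Medians of all genes were 0.13 on log2(TPM + 0.1) and −0.16 on rescaled TPM with HIF1, and 0.17 on total counts, 0.063 and 0.17 on TPM and 0.45 on rescaled TPM between the HIFs.

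Replicate numbers gave no pairing common to the 3 comparisons. Deviations from group means of same-numbered samples correlated at 0.07 to 0.134 with HIF2, −0.091 to 0.097 with HIF1 and −0.194 to −0.067 between the HIFs. Differently numbered samples correlated at −0.132 to 0.066, −0.202 to 0.18 and −0.12 to 0.206, so that with HIF2 all same-numbered values were the higher. With the replicate block 6 members were called with HIF2 (Klf9 lost, adjusted p = 0.0573), 0 with HIF1 and 6 between the HIFs (Klf5 gained, −0.37, adjusted p = 0.0451). Of all genes, 4416 were called with HIF2 against 1010 and 1109 on the TPM scales, 4649 on rescaled TPM and 3074 to 4539 with a sample left out, 0 with HIF1 against 384 without a count filter, 144 with DESeq2, 5 with limma-voom and 7 in a fit of all samples, and 4008 between the HIFs against 367, 460 and 2245 on the 3 TPM scales and 2594 to 4335 with a sample left out (2594 without Ad-hHIF2 replicate 1). Depth limits Klf2 and Klf15, whose totals were 51 counts or fewer in any sample, and 3 samples a group limit all tests.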
